A study of Mus musculus with 20 samples.

Results

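The cells described here are those that the study's clustering placed in cluster 8 of its 14 clusters, a cluster set apart by transcripts of dividing cells. It held 617 of the 21016 cells of 6 single-cell libraries, or 2.94% (95% interval 2.71 to 3.17). All mice were female C57BL/6J of 8 to 10 weeks that ate vehicle chow or chow with PLX5622 at 1200 ppm, an inhibitor of the receptor Csf1r on which microglia depend, from 2 weeks before surgery to the end point. Under each diet there was 1 library of sham mice (laminectomy only, with 7 and 28 days pooled in the label), 1 at 7 days post-injury (dpi) and 1 at 28 dpi after a T9 contusion. Each library pooled 1 cm pieces of cord from several mice that had not been perfused, so blood cells were still in the tissue. Because every condition is 1 library, no test between conditions was made, and every interval given below covers counting error only.

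A cell that divides switches on DNA replication genes in S phase and then the genes of the mitotic spindle, chromosome condensation and cytokinesis in G2 and M. *Top2a* encodes the topoisomerase that untangles sister chromatids, *Mki67* the Ki-67 protein that coats mitotic chromosomes, and *Birc5* the survivin subunit of the chromosomal passenger complex. These transcripts are shared by all dividing cells and are strong enough to draw cells of unlike lineages into 1 cluster. *Elane* and *Mpo* are different in kind, since they encode neutrophil elastase and myeloperoxidase, proteins of the primary granules that granulocyte precursors make in the bone marrow. In the injured cord, microglia divide in place, monocytes enter from blood and become macrophages, and precursors of neutrophils or B cells would ordinarily divide in marrow.

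The 3 division genes marked the cluster as a whole, while the 2 granule genes marked a small share of it. Levels are in CPM, that is, the unique molecular identifiers (UMIs, counted transcripts) of a gene in the cells summed, per 1e6 UMIs of those cells. Cluster 8 held 82.9% of all *Top2a* UMIs of the series, 79.8% of those of *Mki67* and 82.9% of those of *Birc5*, and also 78.3% of those of *Elane* and 79.1% of those of *Mpo*. A UMI of *Top2a* was seen in 82.7% of the 617 cells and in 0.103% of 974 astrocytes, whose median depth was 1436 UMIs against 6090 in cluster 8. *Elane* was seen in 6.16% of the cells and *Mpo* in 3.73%, against 0 of 974 astrocytes, which allows a share of up to 0.308% (3 counts, the limit used here for every count of 0). After each cell was thinned to 1000 UMIs, which left out 23 cells of cluster 8 and 344 astrocytes, *Top2a* was seen in 47.1% and *Elane* in 3.70% of the cluster 8 cells. These genes were among those from which the cluster was drawn, so their height in it is a description.

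The study named the cluster intermediate progenitors, and the neural progenitor markers given here were low in it, apart from *Nes*. *Dcx*, a gene of migrating young neurons, had 0 UMIs in the cluster in all 6 libraries, and *Sox2*, a factor of neural stem cells, had 0, 2 and 3 UMIs under vehicle (sham, 7 and 28 dpi) and 0 under PLX5622. *Nes*, the nestin gene, had 4, 91 and 49 UMIs under vehicle and 11, 16 and 1 under PLX5622. The list of blood stem and progenitor genes (6 genes such as *Kit*, *Gata2* and *Hlf*) summed to 211 CPM, and 706 of its 902 UMIs were *Cd34*. This was below 4 other clusters, namely pericytes, endothelial cells, microglia and ependymal cells, at 1285, 814, 263 and 233 CPM. The granulocyte precursor list, by contrast, was higher in cluster 8 than in any other cluster, at 734 CPM against 596 CPM in neutrophils, with 5 of its 8 genes highest there. The cell cycle genes stood out most widely. Of the 54 G2/M genes, 44 were higher in cluster 8 than in any other cluster, as were 37 of the 43 S phase genes, against 4.21% of all 16003 genes. The genes were used to draw the cluster, so nothing is read from these counts. The name cycling cells, used here, describes the genes that mark the cluster and is not a tested result.

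Promoters of *Top2a*, *Mki67* and the cyclin gene *Ccnb2* are shown because genes of late division that are transcribed together often carry CCAAT boxes and a second motif, the cell cycle homology element, which reads TTTGAA. The sequences are the 200 bases before the start of the gene in RefSeq (build GRCm38.p6), written 5′ to 3′ on the gene's strand, with the letters of both motifs in capitals on either strand. The first reads ATTGG on the opposite strand and the second TTCAAA, and the matches do not overlap. All 3 genes lie on the minus strand, *Top2a* at chr11:99024190-99024389, *Mki67* at chr7:135716380-135716579 and *Ccnb2* at chr9:70421555-70421754.
Top2a: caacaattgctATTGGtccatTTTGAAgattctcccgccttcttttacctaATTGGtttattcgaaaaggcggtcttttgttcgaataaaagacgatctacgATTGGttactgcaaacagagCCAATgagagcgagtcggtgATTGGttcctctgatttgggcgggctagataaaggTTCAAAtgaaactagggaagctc
Mki67: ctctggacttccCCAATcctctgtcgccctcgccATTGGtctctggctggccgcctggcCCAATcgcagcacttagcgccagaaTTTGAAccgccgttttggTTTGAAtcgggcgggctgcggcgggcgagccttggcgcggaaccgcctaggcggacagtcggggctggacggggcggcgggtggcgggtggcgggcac
Ccnb2: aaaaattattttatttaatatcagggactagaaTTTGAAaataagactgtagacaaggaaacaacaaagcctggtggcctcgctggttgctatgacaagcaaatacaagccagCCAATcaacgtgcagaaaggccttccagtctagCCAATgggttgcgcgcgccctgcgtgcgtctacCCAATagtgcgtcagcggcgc
The windows held 5, 3 and 3 matches to the first motif and 2, 2 and 1 to the second. Among the 46 of 54 G2/M genes with an entry, 76.1% had CCAAT and 41.3% had TTTGAA, and 37.0% had both. Among all 27025 promoter windows of the same length these shares were 30.0%, 12.7% and 3.83%. Of 31 S phase genes with an entry, 71.0% had CCAAT and 12.9% TTTGAA. The windows of *Birc5* and *Mpo* held neither, and that of *Elane* held 1 CCAAT. A match is a description of letters and not of a bound site.

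Cluster 8 made up the largest share of its library at 7 dpi under vehicle. There, 307 of 7439 cells belonged to cluster 8 (4.13%, interval 3.69 to 4.60). At 28 dpi it was 248 of 9846 (2.52%, 2.22 to 2.85), and in the sham library 29 of 1795 (1.62%, 1.08 to 2.31). Under PLX5622 the counts were 7 of 492 in sham (1.42%, 0.574 to 2.91), 10 of 504 at 7 dpi (1.98%, 0.956 to 3.62) and, in the later library, 16 of 940 (1.70%, 0.976 to 2.75). The 7 dpi vehicle interval lay above those of the other 5 libraries, and the 3 PLX5622 intervals overlapped each other. With microglia and macrophages left out of the total, the vehicle shares were 3.10%, 13.6% and 9.69% for sham, 7 and 28 dpi and the PLX5622 shares 1.54%, 2.92% and 2.45%.

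Cluster 8 did not hold all cells with mitotic transcripts, and the order of the libraries depended on how such cells were counted. With at least 3 UMIs of 12 mitotic genes as the mark, the cells that passed in any cluster were 6.02%, 5.62% and 2.74% of the vehicle libraries (sham, 7 and 28 dpi) and 5.49%, 7.54% and 2.66% of the PLX5622 libraries. Without *Ube2c* and *Nusap1*, of which red cells held many UMIs, these shares were 2.34%, 5.42% and 2.63% under vehicle and 2.64%, 5.36% and 2.55% under PLX5622. The intervals at 7 dpi then overlapped between vehicle (4.91 to 5.96) and PLX5622 (3.56 to 7.70). Of the cells passing by all 12 genes at 7 dpi, 71.1% lay in cluster 8 under vehicle (297 of 418) and 23.7% under PLX5622 (9 of 38). Without *Ube2c* and *Nusap1* these were 73.2% (295 of 403) and 29.6% (8 of 27).

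**Figure D1:**
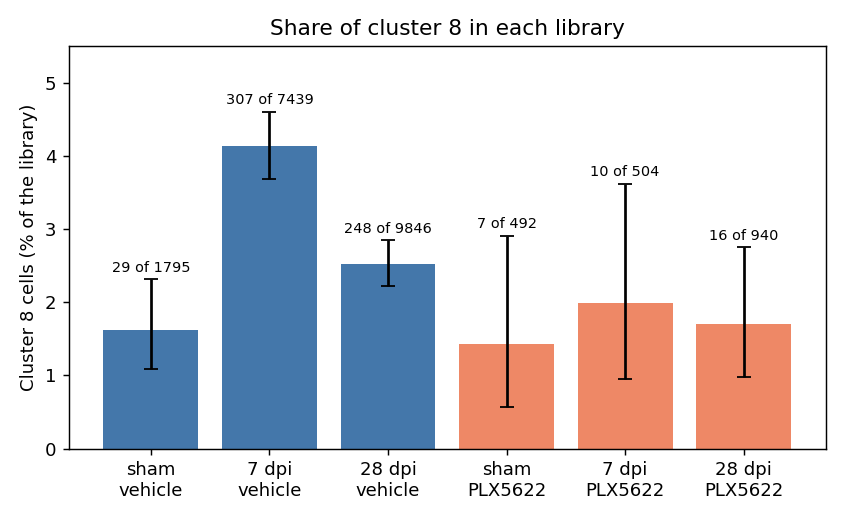
Share of cluster 8 in each library. Bars give cluster 8 cells as a percent of all cells of the library (y axis) for the 6 libraries (x axis), with exact 95% binomial intervals and the counts above. The 7 dpi vehicle library stands highest at 4.13%, and the PLX5622 libraries lie between 1.42% and 1.98%.

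To see which lineages divided, cluster 8 was clustered again without 114 cell cycle genes, which gave 9 sub-clusters. They were named from marker lists, and where the lists did not single out a type they are called by a leading gene. Of the 617 cells, 474 fell into 5 sub-clusters with high macrophage lineage genes. Their names rest on 2 lists, the microglia list (8 genes such as *P2ry12*, *Tmem119*, *Siglech*) and the macrophage list (9 genes such as *Ms4a7*, *Gpnmb*, *Arg1*). The genes that both cells share, such as the complement genes *C1qa* to *C1qc* and *Csf1r*, summed to between 24257 and 42026 CPM in these 5 sub-clusters and to between 2150 and 7440 CPM in the other 4.

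Microglia-like cells formed 2 sub-clusters of 103 and 53 cells. In the first (A) the microglia list reached 3278 CPM and the macrophage list 195 CPM, and in the second (B) 3649 and 324 CPM. *P2ry12*, the receptor by which microglia sense nucleotides, was at 309 CPM in A and 358 in B, against 40.5 CPM in the macrophage-like cells. *Sall1*, a transcription factor of microglial identity, was at 93.0 and 142 CPM against 12.4. A was led by the interferon-induced *Cxcl10* (8.84-fold over the other cycling cells) and *Isg15* (3.40-fold) along with *Siglech*, and B by the immediate early genes *Egr1* (5.03-fold), *Klf2* and *Jun* along with *Sall1*, *P2ry12* and *Tmem119*. Immediate early genes are known to respond to cell dissociation, and the part of dissociation in B was not tested. Of the 156 cells of A and B, 150 were also assigned to microglia when each cell was given to the most likely of the other 13 clusters.

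Macrophage-like cells (89) had the macrophage list at 6129 CPM and the microglia list at 546 CPM. *Arg1*, the arginase of repair-type macrophages, had 84 UMIs here and 1 in all other cycling cells, and led the sub-cluster, followed by the coagulation factor gene *F7*, the chemokine gene *Ccl7*, *Gdf3* and the fatty acid carrier *Fabp4*. *Gpnmb*, a glycoprotein of lipid-loaded macrophages, was at 4538 CPM against 41.7 and 190 CPM in microglia-like A and B. Only *Arg1* of the macrophage list was among the 10 leading genes, and by likelihood 58 of these cells went to the macrophage cluster and 31 to the monocyte cluster.

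Another 229 cells of the macrophage lineage were given to neither type. The types were set by the ratio of the microglia and macrophage lists, and the *Cst7* cells lay just short of the cut for microglia-like. The sub-cluster led by *Chst2*, *Nanos1*, *Colec12* and *Igf1*, the growth factor gene, held 128 cells with the microglia list at 1671 and the macrophage list at 1687 CPM. The sub-cluster of 101 cells that held the protease inhibitor gene *Cst7* and the chemokine genes *Ccl3* and *Ccl4* among its leaders had 2189 and 741 CPM. Genes of lipid-handling phagocytes were higher in both than in microglia-like cells and about as high as in macrophage-like cells. That list was at 107390 and 99167 CPM, against 60287 and 55274 CPM in microglia-like A and B and 98470 CPM in macrophage-like cells. *Apoe* was at 54524 and 57295 CPM, against 34137 CPM in microglia-like A and 50859 CPM in macrophage-like cells, and *Spp1*, the osteopontin gene, at 14097 and 7834 CPM, against 3124 and 16075 CPM. By likelihood, 35 and 47 of these cells went to microglia and 92 and 47 to macrophages.

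The remaining 143 cells lay in the other 4 sub-clusters. The neutrophil-precursor-like cells (39) were led by the secondary granule genes *Ngp*, *Ltf*, *Camp* and *Lcn2*, with that list at 105382 CPM, and had *Cebpe*, the transcription factor of granule maturation, at 618 CPM against 37.7 CPM or less in the other sub-clusters. All 39 went to the neutrophil cluster by likelihood. Monocyte-like cells (32) were led by *Ly6c2* (4090 CPM) and *F13a1*, with the recruitment receptor *Ccr2* at 721 CPM, and all 32 went to monocytes. Their macrophage list stood at 1762 CPM, of which *F13a1* made 1461 CPM. Haemoglobin *Hba-a2* was among their 10 leading genes (60 UMIs). B-like cells (26) carried *Vpreb3*, *Cd79a* and *Cd79b*, with *Vpreb3*, a chaperone of the precursor B cell receptor, at 1738 CPM, *Myb* at 530 CPM and *Il7r* at 324 CPM. Transcripts of the recombinase genes *Rag1* and *Rag2* were at 29.5 and 19.6 CPM there.

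The last 46 cells formed a mixed sub-cluster that was left unnamed. The primary granule genes *Mpo* (2254 CPM), *Elane* (2528 CPM), *Prtn3* and *Ctsg* stood among its leaders beside the basophil and mast cell genes *Mcpt8* and *Cpa3* and the lymphocyte genes *Cd3d* and *Nkg7*. Cell by cell, 16 had 5 or more UMIs of the granulocyte precursor list, 15 of T and NK genes, 6 of MHC class II genes, 6 of erythroid genes and 3 of *Mcpt8*, while 8 passed for more than one of these and 9 for none. By likelihood, 19 of the 46 went to monocytes, 16 to T cells, 3 to microglia and 1 to macrophages. Few cells lay near the granule cut, with 1 at 3 to 7 UMIs, but 10 did so for the T and NK list. Over the whole of cluster 8, 50 cells had 5 or more granulocyte precursor UMIs, of which 18 were neutrophil-precursor-like, 15 monocyte-like, 16 in the mixed sub-cluster and 1 macrophage-like. Cells past this minimum were 8.10% of the cluster.

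**Figure D2:**
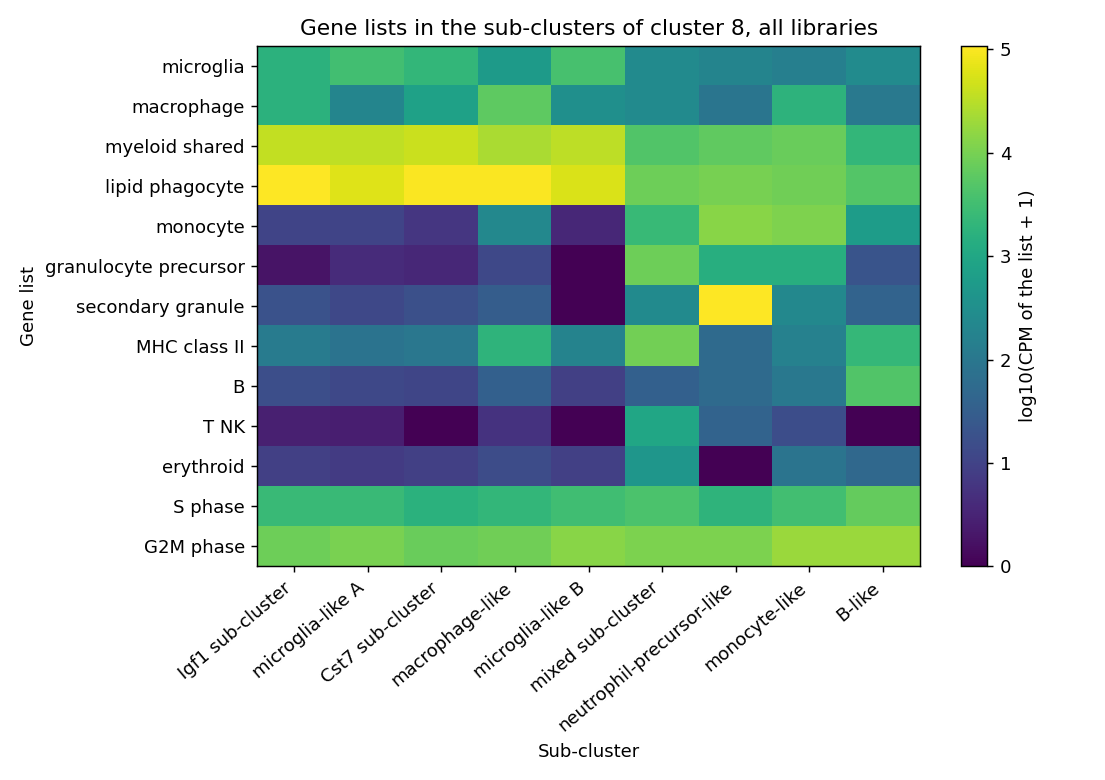
Gene lists in the sub-clusters. Colour gives log10 of the summed CPM of each list plus 1 (rows) in each of the 9 sub-clusters (columns), cells of all libraries together. The granule lists are high in sub-clusters where the microglia and lipid phagocyte lists are low, while S phase and G2/M genes are present in all 9.

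The lineages of the cycling cells differed between sham and injured cords. In the sham vehicle library 5 of 29 cycling cells were of the macrophage lineage (17.2%, interval 5.85 to 35.8). In the injured vehicle libraries these cells made up most of the cluster, with 253 of 307 (82.4%, 77.7 to 86.5) a week after injury. After 28 days the count was 196 of 248 (79.0%, 73.4 to 83.9). In place of them, 23 of the 29 sham cells (79.3%) were neutrophil-precursor-like (11), monocyte-like (5) or in the mixed sub-cluster (7), while these 3 held 50 cells at 7 dpi (16.3%) and 35 at 28 dpi (14.1%). As a share of the whole library the 3 differed less, since they made 23 of 1795 sham cells, 50 of 7439 at 7 dpi and 35 of 9846 at 28 dpi.

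Which macrophage lineage cells divided differed between 7 and 28 dpi. Macrophage-like cycling cells numbered 84 at 7 dpi (27.4% of cluster 8, 22.5 to 32.7) and 2 at 28 dpi (0.806%, 0.0978 to 2.88). Set against the monocyte-derived macrophage (MDM) cluster of the same library, they were 2.70% of both together (2.16 to 3.34) and then 0.0603% (0.00731 to 0.218). Both of the 28 dpi cells were called doublets, as were 6 of the 84. Microglia-like cycling cells numbered 49 at 7 dpi (16.0% of cluster 8, 12.0 to 20.5) and 97 at 28 dpi (39.1%, 33.0 to 45.5), yet against the microglia cluster they were 2.22% (1.65 to 2.93) and 2.38% (1.94 to 2.90), with intervals that overlapped. In sham cords they were 3 cells under vehicle, or 0.443% (0.0915 to 1.29), and 3 under PLX5622, or 9.38% (1.98 to 25.0). The unnamed *Igf1* and *Cst7* sub-clusters together held 120 cells at 7 dpi (39.1%) and 97 at 28 dpi (39.1%). The percents given above against the MDM and microglia clusters leave these cells out, while those clusters were not divided in this way. Both these percents and the shares of cluster 8 thus depend on where the cells are put. When each cell was given to the most likely other cluster, 144 of the 7 dpi cells (46.9%) and 52 of the 28 dpi cells (21%) went to macrophages. To microglia went 79 (25.7%) and 141 (56.9%). The MDM cluster held 3023 and 3313 cells in these libraries and the microglia cluster 2154 and 3974. B-like cells were 4 of 307 (1.30%) at 7 dpi and 17 of 248 (6.85%) at 28 dpi.

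**Figure D3:**
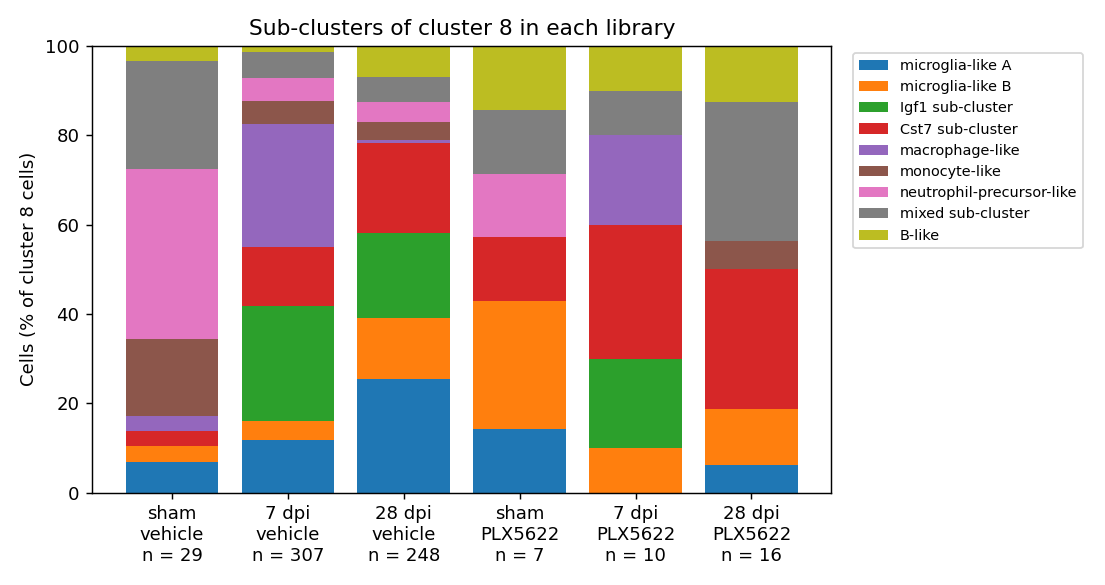
Sub-clusters in each library. Stacked bars give each sub-cluster as a percent of the library's cluster 8 cells (y axis), with n under each bar (x axis). Macrophage-like cells are 27.4% of the bar at 7 dpi vehicle and 0.806% at 28 dpi vehicle, and the 3 PLX5622 bars rest on 7 to 16 cells.

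Under PLX5622 cluster 8 held few cells, and macrophage lineage cells were found among them in all 3 libraries. They were 4 of 7 in sham (57.1%, 18.4 to 90.1), 8 of 10 at 7 dpi (80.0%, 44.4 to 97.5) and, at the later time, 8 of 16 (50%, 24.7 to 75.3). The intervals overlapped those of the vehicle libraries in sham and at 7 dpi, and at 28 dpi up to 75.3 under PLX5622 and from 73.4 under vehicle. By likelihood only 3 of the 10 cells at 7 dpi went to macrophages or microglia and 6 to monocytes. Relative to the microglia and MDM clusters of the library, the cycling macrophage lineage cells were 9.52% in sham PLX5622 (4 cells, 2.66 to 22.6), against 0.579% in sham vehicle (5 cells, 0.188 to 1.35). At 7 dpi the same shares were 4.73% under PLX5622 (8 cells, 2.07 to 9.11) and 4.66% under vehicle (253 cells, 4.11 to 5.25). At 28 dpi they were 2.71% (8 cells, 1.18 to 5.27) and 2.62% (196 cells, 2.27 to 3.01). The wide PLX5622 intervals allow a difference in either direction, and the 7 dpi share depends on how the cells are classed, as the likelihood counts show. Neutrophil-precursor-like cells were 1 of 7 in sham PLX5622 and 0 at 7 and 28 dpi, which allows shares of up to 30.0% and 18.8%. A UMI of the granulocyte precursor list was seen in 1 of 7, 0 of 10 and 2 of 16 cells (12.5% at 28 dpi, against 12.1% under vehicle), and *Elane* and *Mpo* had 0 UMIs in all 3 PLX5622 libraries. In the vehicle libraries, *Elane* had 346, 403 and 112 UMIs in sham, 7 and 28 dpi, and *Mpo* 386, 222 and 94. *Elane* was seen in 17 of 307 cells at 7 dpi (5.54%) and 10 of 248 at 28 dpi (4.03%) under vehicle, and 0 of 10 and 0 of 16 cells cannot be told apart from these shares. Of the *Elane* UMIs at 28 dpi under vehicle, 53.6% came from 1 cell.

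Sub-clusters of cycling cells held transcripts of different D-type cyclins, the proteins that carry growth factor signals to the kinases Cdk4 and Cdk6. *Ccnd1* was at 139, 101, 73.0, 135 and 91.0 CPM in the *Igf1*, microglia-like A, *Cst7*, macrophage-like and microglia-like B cells. In the neutrophil-precursor-like, monocyte-like and B-like cells it was at 0, 9.42 and 9.82 CPM, while the mixed cells, at 88.8 CPM (58.0 to 130), were within the range of the macrophage lineage. *Ccnd3* had the opposite order, at 311 CPM in monocyte-like, 328 in neutrophil-precursor-like and 520 in B-like cells, against 99.1 CPM in the mixed cells and 23.5 to 40.1 CPM in the 5 macrophage lineage sub-clusters. *Ccnd2* was at 177 CPM in B-like and 147 CPM in the mixed cells and at 13.5 CPM or less elsewhere. The intervals of *Ccnd3* in the first 3 did not overlap those of the macrophage lineage. The inhibitor gene *Cdkn2d* was at 216 to 422 CPM in those 3, against 65.2 to 179 CPM in the macrophage lineage and 85.4 CPM in the mixed cells.

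Receptor genes also differed between the sub-clusters. *Csf1r* is one of the shared genes that set the macrophage lineage apart here, so its height there is a description. *Csf1r*, the target of PLX5622, was at 1745 and 1816 CPM in the microglia-like cells, 916 and 1083 CPM in the *Igf1* and *Cst7* cells, 461 CPM in the macrophage-like cells and 128 to 273 CPM in the other 4. *Il7r*, which lymphoid precursors need, was at 324 CPM in B-like and 74.2 CPM in macrophage-like cells. *Kit*, the stem cell factor receptor, was at 58.1 CPM in the mixed cells and at 15.5 CPM or less in the others.

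**Figure D4:**
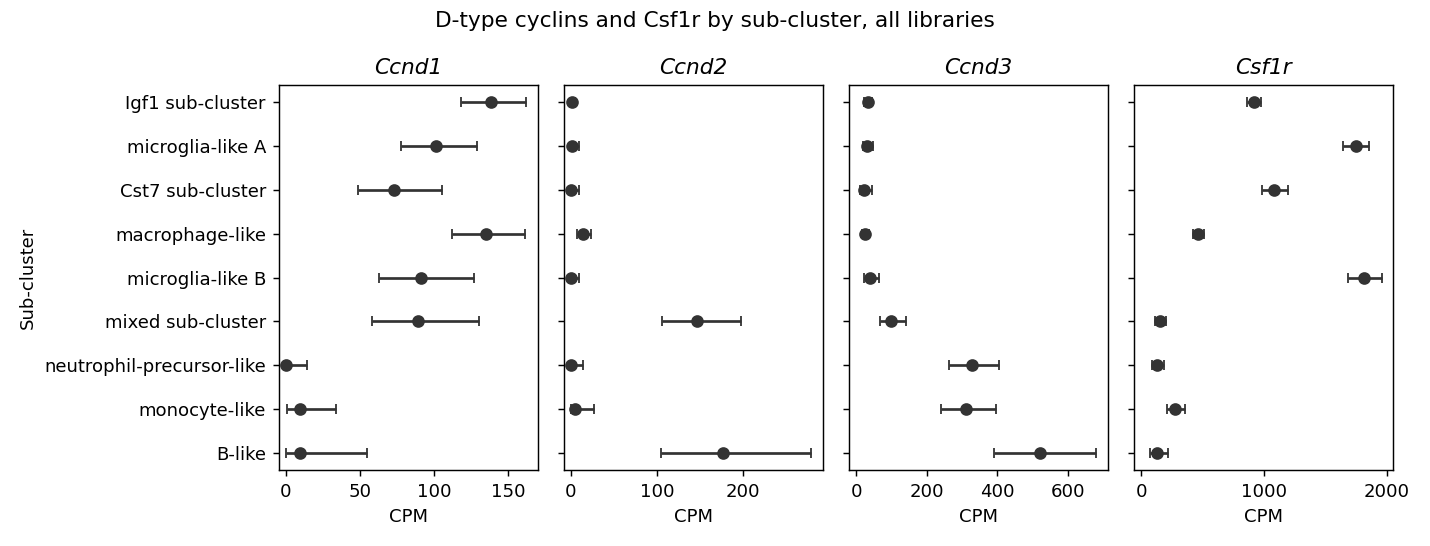
D-type cyclins and *Csf1r* by sub-cluster. Points give CPM (x axes, a separate scale for each gene) in each of the 9 sub-clusters (y axis), cells of all libraries together, with exact 95% Poisson intervals. *Csf1r*, one of the shared genes that set the macrophage lineage apart, is high in that lineage. *Ccnd1* is high there and in the mixed cells, and *Ccnd3* in the neutrophil-precursor-like, monocyte-like and B-like cells.

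Between 7 and 28 dpi under vehicle, the cycling cells as a whole differed in lineage genes. Ratios are log2 of the CPM of the first library over the second, over genes with at least 100 UMIs in both together, and a gene counts as past the fold at 1 or more in either direction. Of 4356 genes, 0.918% were past it as higher at 28 dpi (40) and 1.79% as lower (78), against 30 and 99 under the TMM scaling of edgeR, which sets the middle genes level. Of the 7 microglia list genes with enough UMIs, 4 were higher and 0 lower. *Siglech* had 109 UMIs (44.8 CPM) at 7 dpi and 309 (254 CPM) at 28 dpi, a log2 ratio of 2.50 (2.18 to 2.83), and *P2ry12* had 1.43 (1.16 to 1.70). Of 5 macrophage list genes, 5 were lower, among them the platelet factor *Pf4* at -2.91 (-3.36 to -2.49) and *Ms4a7* at -2.01 (-2.36 to -1.68). Of 10 lipid phagocyte genes 5 were lower, with *Spp1* at 12077 and 5612 CPM (-1.11) and the lipid droplet gene *Plin2* at -2.15. Of the 48 G2/M, 31 S phase and 12 mitotic genes, none was past the fold, and *Mki67* was at 557 and 622 CPM. The mitotic genes are all in the G2/M list as well. Cell cycle genes drew the cells of both libraries into the cluster, and few of all genes were past the fold. Nothing is thus read from these counts. The 5 highest ratios also held *Lag3*, *Hist1h2ao*, *Itgax* and *Ank*, and the 5 lowest *Cd93*, *Folr2*, *Pltp* and *Acp5*. The make-up of the sub-clusters also differed between these libraries, and its part in the ratios was not tested.

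Within the microglia-like cells alone (97 at 28 dpi, 49 at 7 dpi), fewer genes were past the fold. Of 1258 genes, 0.636% were past the fold as higher and 0.715% as lower. *Siglech* was at 177 CPM at 7 dpi and 470 CPM at 28 dpi, a log2 ratio of 1.41 (1.01 to 1.82), and *Gpr34* had 1.06 (0.73 to 1.39), both of the microglia list, of which 5 genes were measured. *Tmem119* had 0.20 (-0.08 to 0.48). The lowest ratios were those of *Sepw1* at -2.35, the scavenger receptor *Stab1* at -2.03, *Ctla2a*, the galectin gene *Lgals1* at -1.60 and the antiviral *Ifitm3* at -1.35. None of 28 G2/M genes was past the fold, from which nothing is read for the same reasons.

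Injured against sham cords gave the largest shares of genes past the fold among the comparisons of libraries, and both times share the sham library of 29 cells. Of 3512 genes at 7 dpi, 15.7% were higher and 8.43% lower (550 and 296, TMM 715 and 174), and of 2207 genes at 28 dpi, 17.2% and 8.70% (379 and 192, TMM 454 and 125). All 5 secondary granule genes were lower at both times, and all measured granulocyte precursor genes too (6 and 4). *Camp* was at 22058 CPM in sham, 1766 at 7 dpi and 1482 at 28 dpi. *Mpo* was at 1234, 91.3 and 77.3 CPM. These levels rest on few cells, with a UMI of *Camp* in 11, 25 and 16 cells and of *Mpo* in 4, 13 and 6, in the same order. At 28 dpi 54.3% of the *Mpo* UMIs came from 1 cell. The lipid phagocyte list was higher, with 9 and 8 of 10 genes past the fold. *Spp1* was at 99.1 CPM in sham, 12077 at 7 dpi and 5612 at 28 dpi, and *Apoe* at 1016, 46243 and 40111 CPM. All measured microglia list genes (6 and 5) were higher as well. *Ctsd*, *Timp2* and *Fcrls* completed the 5 highest at both times, and *Chil3* was among the 5 lowest at both. Macrophage list genes were mixed, with 4 higher and 1 lower of 5 at 7 dpi. The 12 mitotic genes summed to 4529, 3588 and 4040 CPM in sham, 7 and 28 dpi. The G2/M list, which holds these genes too, summed to 15035, 9359 and 10525 CPM, with 6 of 48 and 3 of 41 of its genes lower. The make-up of the sub-clusters differed between these libraries, with the macrophage lineage at 17.2%, 82.4% and 79.0% of cluster 8. Its part in all ratios of this comparison was not tested.

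PLX5622 against vehicle set 10 cells against 307 at 7 dpi and 16 against 248 at 28 dpi. At 7 dpi, 2.23% of 3325 genes were higher and 7.01% lower under PLX5622 (74 and 233, TMM 40 and 296), and at 28 dpi 3.09% and 13% of 1878. The median over all genes tested at 28 dpi was -0.20. MHC class II genes, which present antigen to T helper cells, led both comparisons, with 4 of 4 measured genes higher each time. *H2-Aa* was at 1648 CPM under PLX5622 and 187 under vehicle at 7 dpi, a log2 ratio of 3.14 (2.92 to 3.36), and at 2783 and 52.6 CPM at 28 dpi, a ratio of 5.72 (5.33 to 6.14). At 7 dpi 97.7% of the *H2-Aa* UMIs came from 1 of the 10 cells. At 28 dpi 5 of 16 cells had a UMI of it and the highest cell held 45.4%. The dendritic cell list was also higher, at 4518 against 505 CPM at 7 dpi and 7702 against 159 CPM at 28 dpi, PLX5622 first. It shares *H2-Aa*, *H2-Ab1* and *H2-Eb1* with the class II genes. Under PLX5622 these had 266, 240 and 218 of its 729 UMIs at 7 dpi, and 284, 268 and 223 of 786 at 28 dpi. The list thus mostly counts the same genes again, and the part of dendritic cells in the result was not tested. *Spp1* was at 490 CPM under PLX5622 and 5612 under vehicle at 28 dpi (-3.52, -3.95 to -3.12), and 7 of 10 lipid phagocyte genes were lower there, against 1 of 10 at 7 dpi. The mitotic genes are also part of the G2/M list, so these counts overlap. Of the cell cycle lists at 7 dpi, 0 of 12 mitotic, 6 of 23 S phase and 4 of 48 G2/M genes were lower and none higher. At 28 dpi 4 of 12 mitotic and 9 of 36 G2/M genes were lower, and of 14 S phase genes 2 were higher and 1 lower. The make-up of the sub-clusters also differed at 28 dpi. The mixed sub-cluster was 31.3% of cluster 8 under PLX5622 and 5.65% under vehicle, and the macrophage lineage 50% and 79.0%. Of the 5 PLX5622 cells with 5 or more class II UMIs at 28 dpi, 3 lay in the mixed sub-cluster. The part of this make-up in the ratios was not tested.

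Microglia-like and macrophage-like cycling cells were also set against the microglia and MDM clusters of the same library, called resting here. This is a description, since these are clusters of the same data. In microglia-like cells at 7 dpi, 10.5% of 5696 genes were higher and 6.0% lower than in the microglia cluster, and at 28 dpi 8.24% and 4.08% of 6467. In macrophage-like cells at 7 dpi, 9.31% and 4.52% of 8237 genes were higher and lower than in the MDM cluster. These were 599 and 342, 533 and 264, and 767 and 372 genes, and under TMM scaling 272 and 642, 286 and 509, and 397 and 669, so which direction held more genes depended on the scaling. The median over all genes was 0.21, 0.17 and 0.21, and -0.13, -0.11 and -0.10 under TMM. *Apoe* was at 40209 CPM in cycling and 80171 CPM in resting microglia at 7 dpi and had log2 ratios of -1.35 in microglia at 28 dpi and -0.85 in macrophages. The cycling microglia-like class leaves out the *Igf1* and *Cst7* cells, in which *Apoe* was higher, while the microglia cluster was not divided in this way, so the *Apoe* difference depends on how the class was drawn. *Csf1r* lay close to the resting level, at -0.13, -0.05 and -0.26. The inhibitor gene *Cdkn2d* was higher, at 3.41, 3.03 and 2.93, and *Cdkn1a*, which encodes p21, was at 0.79, 1.96 and -0.03.

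The cycling macrophage-like cells differed from resting MDMs in some genes that monocytes carry. By likelihood, 31 of the 89 macrophage-like cells of all libraries went to the monocyte cluster, which the MDM cluster leaves out. The MHC class II list was at 18151 CPM in the monocyte cluster and 233 CPM in the MDM cluster, all libraries together. These differences thus depend on how the class was drawn, and the part of monocyte-like cells was not tested. Of 4 measured monocyte list genes, *Ccr2*, *Ly6c2* (2.03) and *Hp* (1.00) were higher and *Chil3* was lower (-1.53). *Ccr2* was at 124 CPM in them and 5.13 CPM in the MDM cluster, a log2 ratio of 4.59 (4.18 to 5.00), with a UMI in 27 of 84 cells. *H2-Aa* was at 415 and 37.1 CPM (3.48, 3.29 to 3.67), and 4 of 4 measured MHC class II genes were higher. *Gpnmb* was at 4572 and 7783 CPM (-0.77, -0.82 to -0.72). *Ccnd1* was at 131 and 60.9 CPM (1.11, 0.81 to 1.40). The lowest ratios were those of *Apoc1*, *Cst7*, *Cdo1*, *Gpr84* and *Ddhd1*, between -2.16 and -1.97.

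Cells with mitotic transcripts were also found outside cluster 8. By the same mark, 886 cells of the series passed, and 583 of them lay in cluster 8, where 94.5% of cells passed. The median cluster 8 cell had 17 such UMIs, and 66 cells lay near the mark at 2 to 4. The oligodendrocyte lineage had 44 of 255 cells (17.3%, 12.8 to 22.5), of which 24 were in the 7 dpi vehicle library. Ependymal cells had 29 of 707 (4.10%) and monocytes 22 of 1067 (2.06%). The mitotic UMIs of ependymal cells were led by *Tpx2* with 154 and *Cenpf* with 85, followed by *Top2a* with 16, while *Mki67* had 8. The MDM cluster had 63 of 6791 (0.928%), 50 of them at 7 dpi under vehicle and 8 at 28 dpi. The microglia cluster had 14 of 7018 (0.199%), close to the 0.308% of astrocytes. After thinning to 1000 UMIs the ependymal share was 0.161%, the MDM share 0.0448% and that of microglia 0.0345%, with 0 of 630 astrocytes.

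Red cells need a separate word, because 104 of 262 erythroid cells (39.7%) passed. Their mitotic UMIs were led by *Ube2c* with 550 and *Nusap1* with 270, followed by *Mki67* with 148. Without these 2 genes, 7.25% of erythroid cells passed, while the shares in cluster 8 (93.0%) and the oligodendrocyte lineage (16.5%) hardly differed from those with all 12, and 74.7% of all passing cells then lay in cluster 8.

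**Figure D5:**
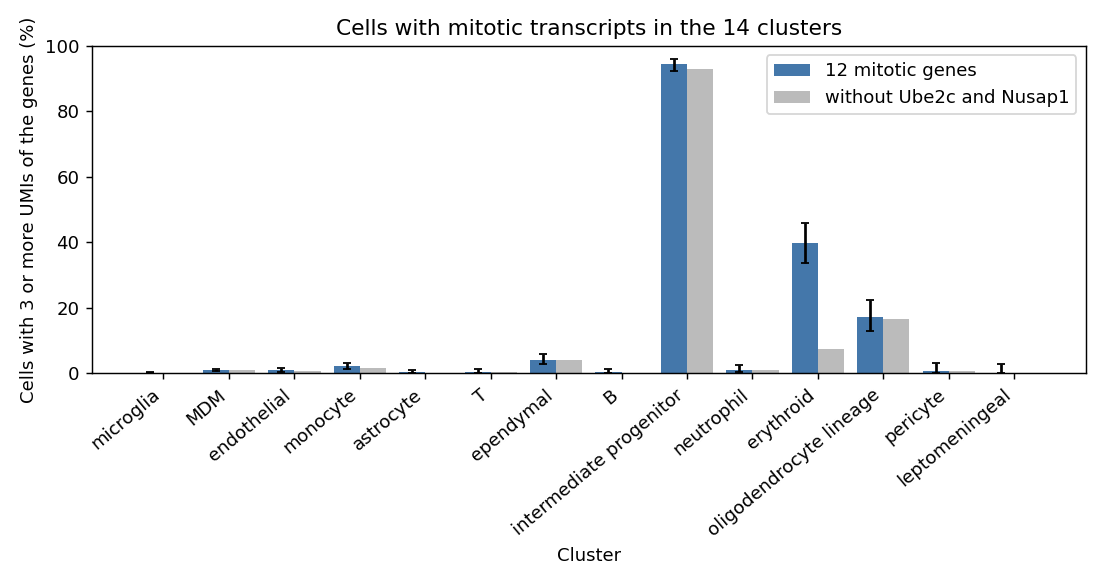
Cells with mitotic transcripts by cluster. Bars give the percent of cells with at least 3 UMIs (y axis) of 12 mitotic genes (blue, with exact 95% binomial intervals) or of the 10 left without *Ube2c* and *Nusap1* (grey) in the 14 clusters (x axis, with cluster 8 under the study's name intermediate progenitor). Cluster 8 stands at 94.5% and 93.0%, and the erythroid cluster at 39.7% and 7.25%.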

How the data were processed

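Single-cell RNA-seq of 6 spinal cord libraries was analysed; bulk RNA-seq was not used here. The authors aligned reads to mm10 (GRCm38) with Cell Ranger (3.0.2 in the matrix headers) and filtered and clustered cells with Seurat. The deposited values are raw counts of UMIs per gene and cell (16003 genes), with a cluster number per cell. The study's methods give an upper limit of 3000 genes per cell, yet 716 cells of the table exceed it, 99 of them in cluster 8. The table leaves out 254 barcodes under 200 genes. Cluster 8 held 29, 307 and 248 cells under vehicle (sham, 7 and 28 dpi) with medians of 9579, 6951 and 4019 UMIs, and 7, 10 and 16 under PLX5622 with 10649, 17690 and 3572. Only 1 cluster 8 cell had a barcode that another library also held.

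UMIs were summed over cells and divided by the total (CPM, exact Poisson intervals), shares given with exact Clopper-Pearson intervals and log2 ratios with exact conditional binomial intervals, all at 95%. Where 1 of the libraries compared held no UMI of a gene, 3 counts stood in for it in counts of genes past the fold. Sub-clusters used log-normalised counts of 2000 variable genes, 20 principal components, 15 neighbours and Leiden resolution 1.0 (scanpy 1.11.5, leidenalg 0.10.2, Python 3.11.15), and leading genes those with at least 50 UMIs. Sub-cluster names were given after their genes were seen. Doublets were left in; Scrublet, set to call 0.8% per 1000 barcodes, called 13 cluster 8 cells at 7 dpi and 22 at 28 dpi under vehicle and 0 elsewhere. The members and lists were chosen with earlier results of these data known. Genes named are the 5 given with the cluster, list members, the 10 leading genes of a sub-cluster and the 5 highest and 5 lowest ratios per comparison with at least 10 UMIs in each library. Alternatives included edgeR 4.0.16 and DESeq2 1.42.0 scaling factors (R 4.3.3), other cell filters, resolutions and minimums. The steps were tested on simulated data. Some items are not reported here.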

Additional observations from a re-analysis of the deposited data

Results flagged for a closer look

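Among the barcodes that the count table leaves out for holding fewer than 200 genes, some passed the mark of 3 mitotic UMIs, namely 48 of 121 in the sham vehicle library, 29 of 102 in sham PLX5622 and 6 of 29 at 7 dpi under PLX5622. They carry 325, 206 and 59 mitotic UMIs, of which 320, 205 and 57 are *Ube2c* or *Nusap1*, and 0 of them pass without these 2 genes. Haemoglobin genes give 16694 of the 72315 UMIs of the left-out sham vehicle barcodes.

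The S phase list was lower under PLX5622 than under vehicle in cluster 8 at 7 dpi (log2 ratio -0.58) and higher at 28 dpi (0.61). The stem and progenitor list was higher at 7 dpi (0.80, 35 UMIs under PLX5622) and lower at 28 dpi (-2.24, 8 UMIs). These pairs stand out because the intervals at the 2 times lie on opposite sides of 0. The difference between the times was not tested, and each rests on 10 and 16 cells under PLX5622.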

How the results depend on the processing

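No paired analysis was possible because each condition is 1 library, and leaving out a replicate could not be done for the same reason. Of the main values under all alternatives, 125 stayed close to the reported value and 70 did not, and of the named genes' ratios 450 stayed close, 85 did not and 5 changed direction. Unless said otherwise the cause was not tested.

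With microglia and MDMs left out of the total, cluster 8 made 3.10%, 13.6% and 9.69% of the vehicle libraries (sham, 7 and 28 dpi). By likelihood, the macrophage lineage was 72.6% of cluster 8 at 7 dpi under vehicle and 30% under PLX5622, macrophages were 46.9% and 21% and microglia 25.7% and 56.9% at 7 and 28 dpi under vehicle. At resolution 0.5 the lineage was 81.3% at 28 dpi under PLX5622, macrophage-like cells were 3.23% at 28 dpi under vehicle, and microglia-like cells 26.7% and 60.5% at 7 and 28 dpi. At resolution 2.0 macrophage-like cells were 22.1% and 3.63% and microglia-like cells 22.8% and 54.0%. Without cells called doublets, macrophage-like cells were 0% at 28 dpi under vehicle.

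The share of all passing cells that lay in cluster 8 was 51.5% at 2 or more mitotic UMIs, 77.8% at 5 or more, 82.8% after thinning to 1000 UMIs and 74.7% without *Ube2c* and *Nusap1*, an alternative chosen after seeing the data. In the same order of the first 3, the percent of cells passing was 97.4, 86.7 and 59.9 in cluster 8, 51.1, 26.0 and 24.3 in erythroid cells (7.25 without the 2 genes), 9.34, 1.13 and 0.161 in ependymal cells, 3.47, 0.695 and 0.0997 in MDMs at 7 dpi under vehicle, 0.755, 0 and 0 in MDMs at 28 dpi, and 1.35, 0 and 0 in microglia at 7 dpi. Microglia at 28 dpi had 0.805% at 2 UMIs and 0% at 5.

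The counts of genes past the fold depended on the minimum, and thinning lowers them by testing fewer genes. For thinned cells, a minimum of 50 and a minimum of 200 UMIs, they were 33, 268 and 66 for 28 over 7 dpi (118 as reported), 0, 59 and 5 in microglia-like cells (17), 132, 1491 and 467 for 7 dpi over sham (846), 104, 1053 and 311 for 28 dpi over sham (571), 93, 789 and 103 for PLX5622 at 7 dpi (307), 44, 731 and 126 for PLX5622 at 28 dpi (302), and 512, 1507 and 455 for cycling over resting microglia at 7 dpi (941). For microglia at 28 dpi (797) they were 1328 and 391 at the 2 minimums, and for macrophages at 7 dpi (1139) 625 thinned and 677 at 200. With each cell weighted alike they were 29 in microglia-like cells and 1006 for PLX5622 at 7 dpi. After thinning, the ratios of PLX5622 over vehicle at 7 dpi were 0.33 for *Ctla2a*, 0.63 for *Pf4*, 0.058 for *Apoc2* and 0.91 for *Apoc1*, and at 28 dpi -0.40 for *S100a11*, each of the opposite sign to the reported ratio. TMM scaling shifted the median over all genes from 0.00 to 0.24 at 7 dpi and 0.16 at 28 dpi for injured over sham, and from 0.04 to -0.11 and from -0.20 to -0.28 for PLX5622 at 7 and 28 dpi. With 7 to 16 cycling cells per PLX5622 library, shares there have wide intervals, and single cells can set a gene's level.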
